A study of Mus musculus with 4 samples.

Results

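The miR-200 family was represented by 9 of the 1900 miRNA probes of each array, picked by name alone: mmu-miR-200a-3p and -5p, mmu-miR-200b-3p and -5p, mmu-miR-200c-3p and -5p, mmu-miR-141-3p and -5p, and mmu-miR-429-3p. Total RNA of 4 mouse samples was hybridised to 4 arrays with 1 colour, Cy5. The samples were villus epithelial cells and crypt epithelial cells isolated from the small intestine, and organoids cultured from small intestinal crypts, collected after 1 day (day 1) or 5 days (day 5). Each group was 1 array and each member had 1 spot per array, so no difference below has a replicate check and no p-value was computed. The labels name no strain, age, sex, genotype, culture medium or number of animals, and they give no treatment for any group. An organoid here is a closed epithelial structure grown in a gel from isolated crypts, which hold the stem and dividing cells of the epithelium, whereas villus cells are mostly differentiated.

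MicroRNAs are short RNAs cut from hairpin precursors that guide silencing proteins to messenger RNAs, chiefly through their seed, bases 2 to 8. The miR-200 family is abundant in epithelia. It represses the transcription factors ZEB1 and ZEB2, which themselves repress E-cadherin and the miR-200 genes, and this mutual repression holds cells in an epithelial state. The mature strand loaded by the silencing complex is mainly the 3p arm, and the 5p arm is the partner strand that is mostly degraded.

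The 5 hairpins come from 2 loci, which are shown because the clusters, seeds and arms compared below are defined by them. All 9 members matched a mature sequence of RefSeq (GRCm38.p6). Mir200b, Mir200a and Mir429 lie on the minus strand at chr4:156053905-156055750, within 1846 bases and inside the interval of the annotated long non-coding RNA Gm13648. Mir200c and Mir141 lie on the minus strand at chr6:124717914-124718390, within 477 bases and outside any other annotated gene, between Phb2 and Ptpn6. In the hairpins, capitals mark the mature arms, with the 5p arm first.
Mir200b: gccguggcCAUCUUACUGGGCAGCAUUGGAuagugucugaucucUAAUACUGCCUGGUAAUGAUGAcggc
Mir200a: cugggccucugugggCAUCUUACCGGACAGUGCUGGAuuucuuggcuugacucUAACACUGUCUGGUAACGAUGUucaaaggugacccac
Mir429: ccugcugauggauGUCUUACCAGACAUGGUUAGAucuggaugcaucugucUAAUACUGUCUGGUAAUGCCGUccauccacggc
Mir200c: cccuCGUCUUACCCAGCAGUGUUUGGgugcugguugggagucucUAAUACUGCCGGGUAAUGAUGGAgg
Mir141: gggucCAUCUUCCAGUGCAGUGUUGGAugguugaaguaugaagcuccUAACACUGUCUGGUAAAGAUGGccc

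In the mature members, capitals mark the seed.
miR-200b-3p: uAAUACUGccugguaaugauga
miR-200c-3p: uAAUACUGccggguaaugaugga
miR-429-3p: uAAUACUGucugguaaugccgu
miR-200a-3p: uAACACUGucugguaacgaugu
miR-141-3p: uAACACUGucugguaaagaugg
miR-200b-5p: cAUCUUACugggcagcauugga
miR-200a-5p: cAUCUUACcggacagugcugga
miR-141-5p: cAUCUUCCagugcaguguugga
miR-200c-5p: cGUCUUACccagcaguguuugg

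The 3p arms form 2 seed groups that cut across the 2 loci. miR-200b-3p, miR-200c-3p and miR-429-3p share AAUACUG, and miR-200a-3p and miR-141-3p share AACACUG. Counting from 1 at the 5′ end, the seeds differ by U4C from the first group to the second. miR-200b-3p and miR-200c-3p, from different loci, differ over 22 bases only by U11G and A22G, an identity of 90.9%. miR-200a-3p and miR-141-3p differ by C17A and U22G, also 90.9%. The other pairs of 3p arms are 77.3% to 81.8% identical. Probe sequences were not used here, and how far each probe also binds the other members was not tested. Among the 5p arms, miR-200a-5p and miR-200b-5p share the seed AUCUUAC, whereas miR-141-5p has AUCUUCC and miR-200c-5p has GUCUUAC.

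All 9 members were detected on all 4 arrays, that is, more than 2 SD above the mean of that array's blank spots, as were 60.5% of 1897 miRNA probes. The arrays differed in brightness. Spots named Spike Control, for which the sources used here give no added amount, averaged 28361 over the blanks for villus, 8540 for crypt, 16422 for day 1 and 8578 for day 5. The log2 SD among the 8 spots of a Spike Control on 1 array was between 0.05 and 0.13. The identifiers of the scans carry 1 code for the villus, crypt and day 1 arrays and another for the day 5 array, read here as slides, so the day 5 sample and the second code cannot be told apart. The main values are normexp-corrected intensities, log2, quantile normalized, called normalized log2 levels below. A second scale, the height of a spot above the mean blank spot, is given beside them.

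The 3p probes gave bright spots on all 4 arrays. mmu-miR-200b-3p had a height of 3569 in villus, 1219 in crypt, 1092 in day 1 and 889 in day 5 material. Its normalized log2 levels were 10.51, 11.76, 9.61 and 10.39 in the same order. The height was therefore greatest on the bright villus array, but after normalization the crypt array was highest. mmu-miR-200a-3p, from the same locus, had heights of 2923, 1245, 988 and 769 and levels of 10.23, 11.80, 9.47 and 10.20. mmu-miR-429-3p, the third member of that locus, had heights of 1203, 467, 387 and 362 and levels of 9.15, 10.65, 8.32 and 9.11. Across these 3 miRNAs the order of the levels was crypt, villus, day 5 and day 1, with villus and day 5 within 0.12 of each other. mmu-miR-200c-3p, from the other locus, had heights of 1950, 668, 720 and 445 and levels of 9.65, 11.21, 9.07 and 9.41. mmu-miR-141-3p, its partner, had heights of 1669, 622, 513 and 328 and levels of 9.45, 11.10, 8.68 and 9.01. These 2 kept the same order, with villus above day 5 by a wider gap. Counted in SD of the blank spots, the 3p value nearest to the blank mean was miR-429-3p on the day 1 array, 211 SD above it.

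**Figure D1:**
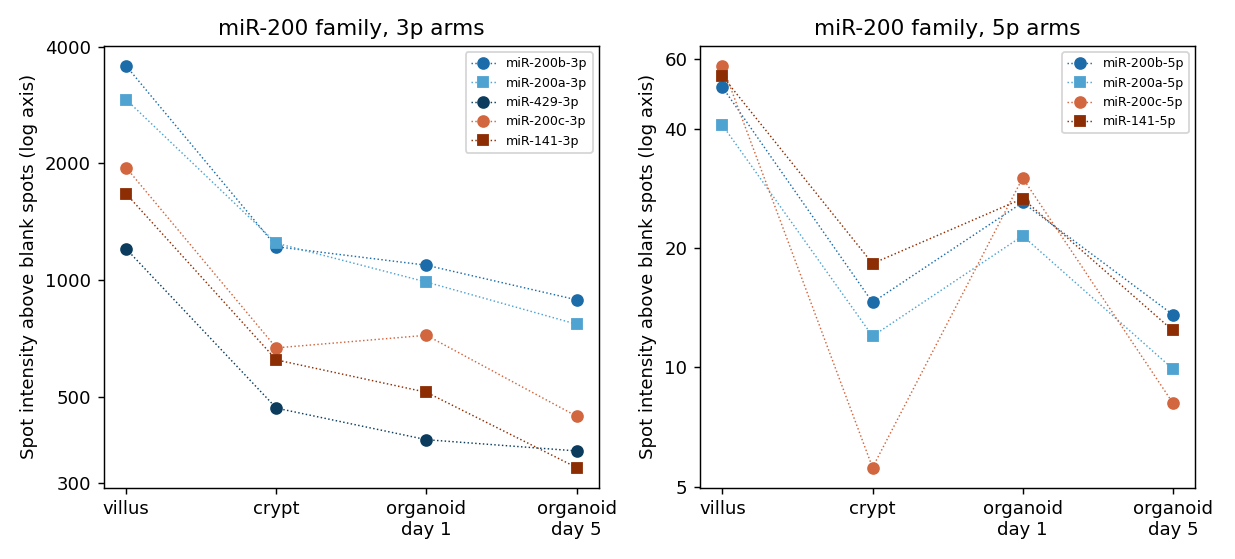
Height of each member's spot above the mean blank spot (log axis) on the villus, crypt, organoid day 1 and organoid day 5 arrays, 3p arms at left and 5p arms at right, with dotted lines joining 1 probe; blue marks the miR-200b, miR-200a and miR-429 locus and brown the miR-200c and miR-141 locus. The 3p heights run from 328 to 3569 and the 5p heights from 5.59 to 57.7; the arrays differ in brightness, and different probes are not to be compared with each other.

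Villus cells were compared with crypt cells as the differentiation axis of the epithelium. All 5 3p members had lower normalized levels on the villus array, by 2.38-fold for miR-200b-3p, 2.83-fold for miR-429-3p, 2.94-fold for miR-200c-3p, 2.96-fold for miR-200a-3p and 3.14-fold for miR-141-3p. Over all miRNAs detected on both arrays, 4.29% of 1211 were at least 2-fold lower, against 5 of the 9 members, while 4.79% were at least 2-fold higher and none of the members was. With the blank mean subtracted before quantile normalization, 18.6% of all miRNAs were at least 2-fold lower, as were the 3p members. The 3p members lay close together, with log2 differences from -1.65 to -1.25 and an SD of 0.15, beside an SD of 0.61 over all miRNAs. The direction depended on the scaling. The 3p median was -1.56, and it was also below 0 under 7 of the 8 alternatives, but scaling to the median gave 0.62 and scaling to the 75th percentile -0.0016. With the heights scaled to the Spike Controls, the 3p median was -0.31 and miR-200a-3p had -0.50, miR-429-3p -0.37, miR-141-3p -0.31, miR-200c-3p -0.19 and miR-200b-3p -0.18. No 3p member was 2-fold lower on that scale (1.73% of all miRNAs were), where the median of all miRNAs was 1.23. Relative to that median the 3p members stood at -1.54, and they were below all miRNAs under 7 of 9 settings and above, at 0.29, when scaled to the median or the 75th percentile.

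The villus array also carried markers of cells that are not epithelial. Of 7 smooth muscle and fibroblast miRNAs, all 7 were detected there with a summed height of 24072, against 6 and 104.8 on the crypt array, 6 and 128.5 on the day 1 array, and 4 and 52.1 on the day 5 array. miR-143-3p, made in smooth muscle and fibroblasts, had a height of 11815 on the villus and 41.5 on the crypt array, and miR-145a-5p, from the same transcript, 9985 and 27. The miR-199a-3p probe, whose name also lists miR-199b-3p, gave 696 and 4.11. Leukocyte miRNAs summed to 1612 on the villus array and to between 23.8 and 55.7 on the other 3, with miR-142a-3p at 351 and at most 6.83 elsewhere, miR-142a-5p at 683 and miR-223-3p at 298. Endothelial miRNAs summed to 665 on the villus array and to at most 12.8 elsewhere, with miR-126a-3p at 598 and miR-126a-5p detected on the villus array alone. The 3 red blood cell probes summed to 2247 there and to at most 85.3 elsewhere, with miR-451a at 2059 and miR-144-3p detected on the villus array alone. The third probe, shared by miR-486a-5p and miR-486b-5p, did not follow them by normalized level, with -0.01 in villus minus crypt. Its heights were 115, 13.4, 55.8 and 25 on the villus, crypt, day 1 and day 5 arrays. Whether these cells' RNA lowers the epithelial share on the villus array was not tested. In RNA of a mixed sample, fewer epithelial cells and less miRNA per cell cannot be told apart.

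Organoids on day 1 were compared with crypt cells, the tissue that organoids are cultured from. The 5 3p members were again lower by normalized level: 4.39-fold for miR-200c-3p, 4.43-fold for miR-200b-3p, 5.02-fold for both miR-200a-3p and miR-429-3p, and 5.34-fold for miR-141-3p. Of 1226 miRNAs detected on both arrays, 8.08% were at least 2-fold lower, against 5 of the 9 members, and 6.77% at least 2-fold higher, against 0. With the blank mean subtracted before quantile normalization, 23.2% of all miRNAs were at least 2-fold lower, as were the 3p members. The log2 differences of the 3p members spanned only 0.28, from -2.42 to -2.14. Their median of -2.33 stayed below 0 under every alternative except scaling to the epithelial miRNAs miR-192-5p, miR-194-5p and miR-215-5p, where it was 0.02. Relative to all miRNAs it was below 0 under all 9 settings, between -2.68 and -0.87. On the Spike Control scale the difference was smaller, with a median of -1.21. There 4 of the 5 remained at least 2-fold lower (5.06% of all miRNAs were), and miR-200c-3p had -0.83.

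On day 5 the 3p members were lower than on the crypt array by 2.59-fold for miR-200b-3p, 2.89-fold for miR-429-3p, 3.02-fold for miR-200a-3p, 3.48-fold for miR-200c-3p and 4.26-fold for miR-141-3p. At least 2-fold lower were 6.1% of 1163 miRNAs, against 5 of the 9 members, and 5.5% were at least 2-fold higher, against 0. With the blank mean subtracted before quantile normalization, 16.5% of all miRNAs were at least 2-fold lower, as were the 3p members. By normalized level both members of the miR-200c and miR-141 locus had the lower values, -1.80 and -2.09, against -1.37 to -1.60 for the other 3. This order by locus did not hold on the Spike Control scale, where miR-200a-3p had -0.70 and miR-200c-3p -0.59. The 3p median of -1.60 was below 0 under every alternative except scaling to the 3 epithelial miRNAs, with 0.46. Relative to all miRNAs it was below 0 under all 9 settings, between -2.13 and -0.69. On the Spike Control scale it was -0.59, and no 3p member was 2-fold lower (2.58% of all miRNAs were), with miR-141-3p at -0.93 and miR-429-3p at -0.38. The comparisons of villus, day 1 and day 5 with crypt share the crypt array, so a deviation of that 1 array would move all 3 alike. Over all 9 members, the median was -1.25 in villus minus crypt, -2.14 in day 1 minus crypt and -1.37 in day 5 minus crypt, with the 5p arms nearer to 0.

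**Figure D2:**
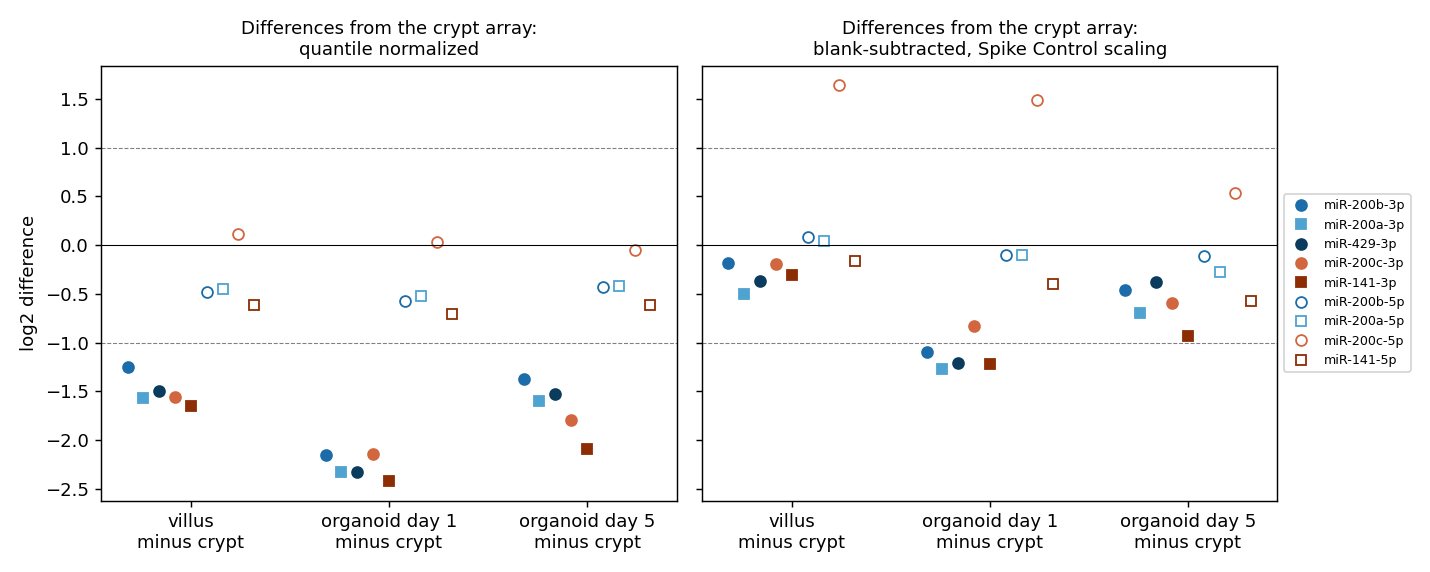
log2 differences of the 9 members from the crypt array, for the villus, organoid day 1 and organoid day 5 arrays, after quantile normalization (left) and as heights scaled to the Spike Controls (right); filled symbols are 3p arms, open symbols 5p arms, blue and brown the 2 loci, circles and squares the 2 seed groups of the 3p arms, and dashed lines 2-fold. All 5 filled symbols lie below -1 in each comparison at left, and at right only on day 1 do any, 4 of 5.

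Between the organoid arrays, which do not involve the crypt array, the 3p members were higher on day 5 than on day 1, by 1.74-fold for miR-429-3p, 1.71-fold for miR-200b-3p, 1.66-fold for miR-200a-3p, 1.26-fold for miR-200c-3p and 1.25-fold for miR-141-3p. No member passed 2-fold, as 0.371% of 1346 miRNAs did in that direction and 1.04% in the other. The median over all 9 members was 0.33. The 3p median of 0.73 stayed above 0 under all 8 alternatives, the lowest being 0.02 with scaling to the median. Relative to all miRNAs it lay between 0.13 and 1.05. It is the 1 comparison of the 6 in which the 3p median kept its sign under every setting, though single members did not. With scaling to the median miR-200c-3p had -0.27 and miR-141-3p -0.21, and with the background column subtracted miR-141-3p had -0.78 and miR-429-3p -0.11.

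Organoids were also set against villus cells. On day 1 the 3p members were lower than on the villus array, between -0.89 for miR-200b-3p and -0.58 for miR-200c-3p, and none reached 2-fold (5.67% of 1429 miRNAs did, and 3.85% were at least 2-fold higher). This median, -0.77, was above 0 with scaling to the 3 epithelial miRNAs (0.58) and with the background column subtracted (0.66). On day 5 the 3p members were nearer to the villus array, with miR-200a-3p and miR-429-3p both at -0.03, miR-200b-3p at -0.12, miR-200c-3p at -0.24 and miR-141-3p at -0.44. None was 2-fold lower or higher, against 4.83% and 3.24% of 1326 miRNAs. The day 5 median of -0.12 ranged from -1.28 with scaling to the median to 0.97 with scaling to the 3 epithelial miRNAs. The sign of the difference between day 5 organoids and villus cells thus depended on the scaling.

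**Figure D3:**
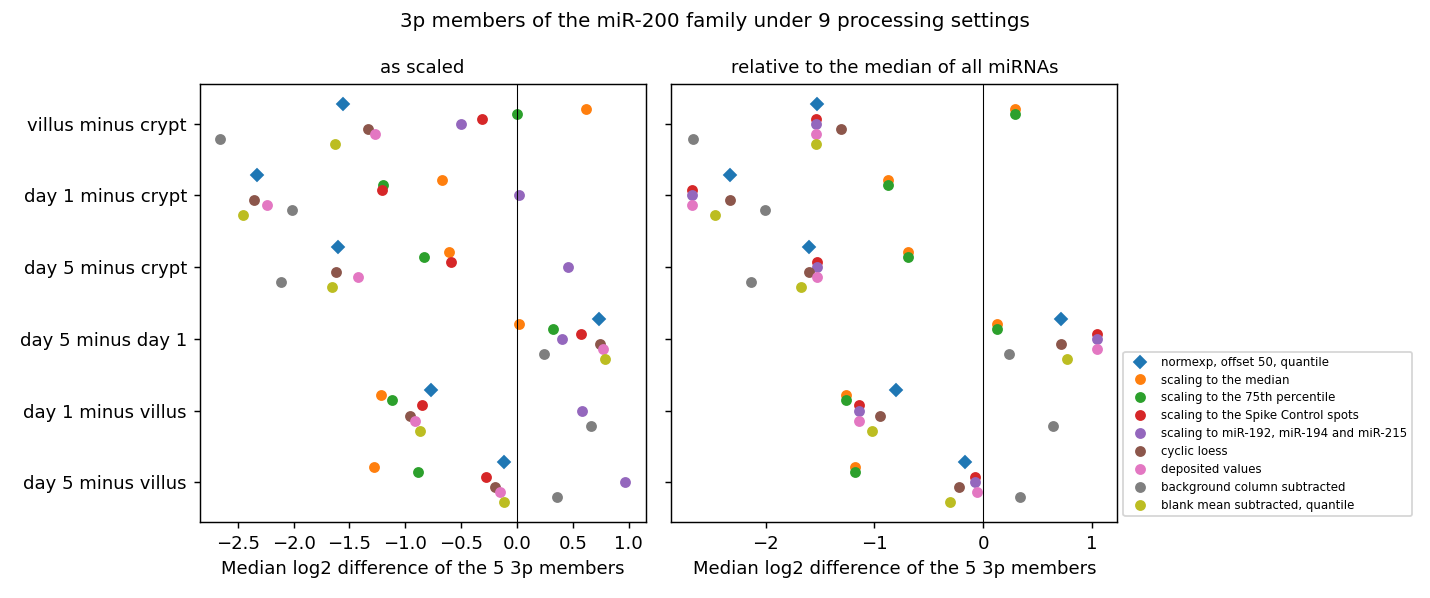
Median log2 difference of the 5 3p members in the 6 pairs of arrays under 9 processing settings, as scaled (left) and after subtraction of the median of all miRNAs detected on both arrays (right); diamonds are the quantile-normalized values. Day 5 minus day 1 is above 0 under all 9 settings, whereas villus minus crypt runs from -2.66 to 0.62; scalings that share the blank-mean subtraction coincide at right and are not separate measurements.

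The 2 loci were then compared through the differences of their 3p members, by normalized level unless stated. A factor common to an array cancels in such a contrast by height, but not by normalized level. Villus minus crypt gave a median of -1.50 for miR-200b, miR-200a and miR-429 and -1.60 for miR-200c and miR-141, a contrast of 0.10. That contrast was -0.12 by height, and between -0.14 and 0.10 without the background column, so its sign depended on the setting. Day 1 minus crypt gave -2.33 and -2.28, a contrast of -0.05, which ranged from -0.20 to 0.0044. Neither exceeded the SD of the 5 members within the same pair by normalized level, 0.15 and 0.12.

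The loci parted on the day 5 array. Day 5 minus day 1 gave 0.78 for the miR-200b, miR-200a and miR-429 locus and 0.33 for the miR-200c and miR-141 locus, a contrast of 0.44. All 3 members of the first lay above both members of the second under 8 of 9 settings, and the contrast was above 0 under all 9, between 0.26 and 0.46. For contrasts within the family the 9 settings are not all separate measurements. Spike Control, epithelial miRNA and deposited scaling each gave 0.37, and median and 75th percentile scaling each gave 0.32. Day 5 minus villus gave a contrast of 0.31, with the same separation under 8 of 9 settings. Day 5 minus crypt gave 0.41, above 0 under 8 of 9 settings and -0.10 with the background column subtracted. There the members of the loci were fully separated under 2 settings only, since miR-200a-3p (-0.70) lay below miR-200c-3p (-0.59) by Spike Control height. These 3 contrasts share the day 5 array, which alone carried the other slide code, and a slide effect on these probes was not tested.

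The loci were also compared pair by pair. The log2 ratio of 2 members from the same locus varied over the 4 arrays by 0.27 to 0.39 in height (4 pairs), and that of 2 members from different loci by 0.40 to 0.62 (6 pairs), the widest being miR-429-3p with miR-141-3p. Without the day 5 array these ranges overlapped, at 0.13 to 0.39 and 0.07 to 0.44. By normalized level they were 0.07 to 0.31 and 0.39 to 0.72 with all arrays, and 0.07 to 0.31 and 0.09 to 0.40 without day 5. With all arrays the ranges of the same and of different loci also overlapped under 4 of the 9 settings: 0.31 to 0.35 and 0.32 to 0.58 with median or 75th percentile scaling, 0.28 to 0.48 and 0.34 to 0.55 with cyclic loess, and 2.22 to 6.28 and 1.05 to 4.92 with the background column subtracted. The split of the pairs by locus thus depended on the setting. Seed did not divide the pairs: ranges were 0.27 to 0.60 for a shared seed and 0.32 to 0.62 for different seeds. Pairs share members and are not independent.

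**Figure D4:**
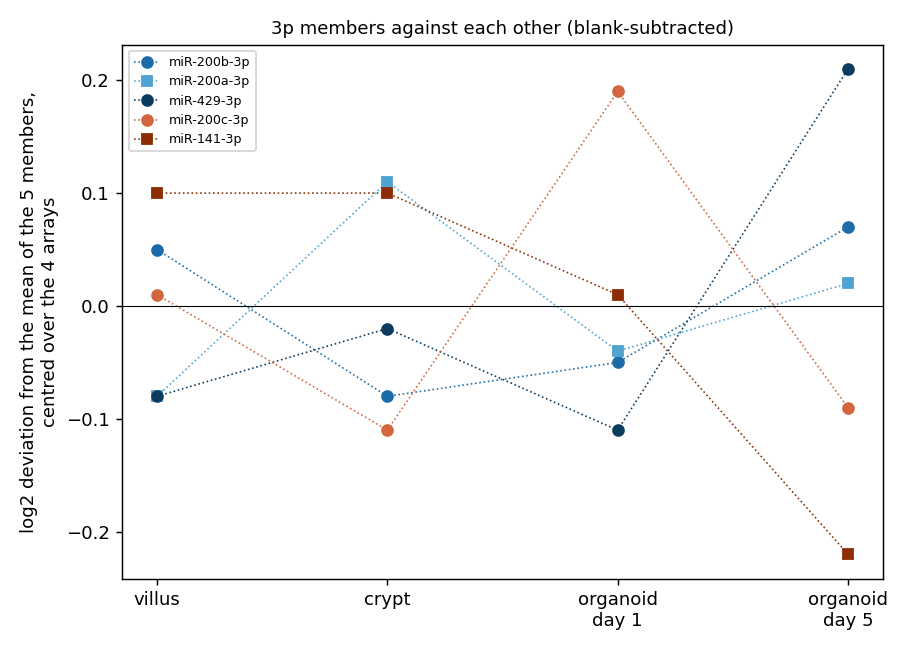
Height of each 3p member on the log2 scale minus the mean of the 5, centred over the 4 arrays, on the villus, crypt, organoid day 1 and organoid day 5 arrays; blue marks the miR-200b, miR-200a and miR-429 locus, brown the miR-200c and miR-141 locus, and a factor common to an array cancels. On day 5, miR-429-3p stands at 0.21 and miR-141-3p at -0.22, with the 3 blue members above both brown ones, whereas on day 1 miR-200c-3p stands highest at 0.19.

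The 2 seed groups were compared in the same way. In villus minus crypt the AAUACUG group had a median of -1.50 and the AACACUG group -1.61, a contrast of 0.11. The contrast was 0.23 in day 1 minus crypt and 0.31 in day 5 minus crypt. In all 3 it was above 0 under 8 of 9 settings, so that the AACACUG members, miR-200a-3p and miR-141-3p, had the lower median difference. That did not always place them below the crypt array. In villus minus crypt with scaling to the median, the AAUACUG group had 0.74 and the AACACUG group 0.54. With the background column subtracted the 3 contrasts were -1.60, -0.57 and -1.32. The members of the groups were fully separated under 1, 5 and 6 of 9 settings, in the same order, and these comparisons share the crypt array. Between day 1 and villus, without it, the contrast was -0.06, and only 3 of 9 settings put it above 0. Day 5 minus villus, also without it, had 0.12, above 0 under all 9 settings (0.07 to 0.14, and 0.29 with the background column subtracted), though the groups overlapped under each. Day 5 minus day 1 had 0.25, -0.40 with the background column subtracted, and the groups overlapped under all 9 settings.

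The 5p probes gave spots near the blank spots. miR-141-5p had heights of 54.4, 18.3, 26.7 and 12.4 above the blank spots on the villus, crypt, day 1 and day 5 arrays. miR-200b-5p had 51, 14.6, 26.1 and 13.6, and miR-200a-5p had 40.9, 12, 21.5 and 9.92. These values were between 8.33 and 17.9 blank SD above the blank mean. The authors' deposited values, which put the median detected probe of each array at 25.0, gave the 5p arms 13.4 to 53.6, around that median, and the 3p arms 289.7 to 3643.8. The normexp offset of 50 exceeds all 5p heights outside the villus array, so differences of these arms by normalized level are understated by construction. No 5p arm passed 2-fold by normalized level in any of the 6 comparisons, but this count depended on the setting. With the deposited values 1, 3 and 2 of the 4 were at least 2-fold lower in villus, day 1 and day 5 minus crypt, beside 11.7%, 17.8% and 15.4% of all miRNAs. With the blank mean subtracted before quantile normalization 3 of 4 were lower in each, beside 18.6%, 23.2% and 16.5%, and miR-200c-5p was the exception at 0.41, 0.10 and -0.20.

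miR-200c-5p stood apart from the other 5p arms. Its heights were 57.7, 5.59, 30.1 and 8.14, and the crypt value was only 5.45 blank SD above the blank mean. The villus height was 10.3 times the crypt height, whereas the other 5p arms had ratios of 2.97 to 3.5 and the Spike Controls 3.32. On day 1 the ratio to crypt was 5.39, against 1.46 to 1.8 for the other 5p arms and 1.92 for the Spike Controls. On day 5 it was 1.46, against 0.675 to 0.932. With the crypt height raised by 2 blank SD, to 7.64, the ratios for miR-200c-5p would be 7.56, 3.95 and 1.07. On the Spike Control scale its log2 difference in villus minus crypt was 1.64, nearer to the median of all miRNAs, 1.23, than the other 8 members, and 59.5% of miRNAs were at least 2-fold higher on that scale. By normalized level it was nearly flat, with 6.36, 6.25, 6.27 and 6.20.

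Arms of 1 hairpin were compared by the difference of the 3p arm minus that of the 5p arm. By normalized level the median over the 4 hairpins was -1.08 in villus minus crypt, -1.76 in day 1 minus crypt, -1.33 in day 5 minus crypt and 0.52 in day 5 minus day 1. By height, which carries no offset, these were -0.40, -1.09, -0.39 and 0.70. In day 1 minus crypt all 4 hairpins had a negative value by height, from -2.32 for miR-200c to -0.82 for miR-141, and the median was below 0 under all 9 settings. In villus minus crypt both median and 75th percentile scaling gave 0.60, so the arms have no settled order there. In day 5 minus day 1 it was -0.10 with the same 2 scalings. The day 1 minus crypt differences of the miR-200a, miR-200b and miR-141 3p arms were thus below those of their own 5p arms. Whether each arm itself was lower depended on the scaling. With scaling to the epithelial miRNAs these 5p arms had 1.13, 1.13 and 0.83, and the 3p arms -0.04, 0.13 and 0.01. The hairpin with the widest gap depended on the setting: miR-200c by height and by normalized level, miR-200a with median or 75th percentile scaling and with cyclic loess, and miR-200b with the background column subtracted.

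The family was next set against miR-192-5p, miR-194-5p and miR-215-5p, the abundant miRNAs of intestinal epithelium, which were chosen as an epithelial yardstick that holds no member. Their heights on the villus, crypt, day 1 and day 5 arrays were 8828, 2711, 2398 and 1664 for miR-192-5p, 27492, 7246, 4776 and 3064 for miR-194-5p, and 14997, 3375, 3173 and 1473 for miR-215-5p. In villus minus crypt the 3p median was lower than each of them, by height -0.28, -0.50 and -0.73 and by normalized level -0.17, -0.94 and -0.83 in the same order. In day 5 minus crypt it was higher than each, by height 0.12, 0.66 and 0.61 and by normalized level 0.07, 0.08 and 0.76, but -1.03 and -0.04 against miR-192-5p and miR-215-5p with the background column subtracted. In day 5 minus villus it was higher by height by 0.40, 1.16 and 1.34, and above 0 with the background column subtracted as well. On day 1 against crypt the signs were mixed by height, -0.09, 0.33 and -0.18. Relative to these 3 epithelial miRNAs the miR-200 3p arms were thus lowest on the villus array. Gaps of 0.07 and 0.12 are no larger than the widest spot SD of the Spike Controls, 0.13.

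Other miRNAs with a similar pattern were looked for among 1134 other probes detected on all 4 arrays, by the root mean square distance of centred normalized levels from the mean profile of the 5 3p members. That profile was -0.14 for villus, 1.36 for crypt, -0.91 for day 1 and -0.31 for day 5. The nearest was miR-19b-3p at 0.08, followed by miR-192-5p at 0.12, miR-106a-5p and miR-93-5p both at 0.15, miR-20b-5p at 0.16 and miR-106b-5p at 0.19. The 5 3p members themselves lay at 0.06 to 0.15, the 4 5p members at 0.56 to 0.85 and the median probe at 0.86. Of these 6, all except miR-192-5p belong to the miR-17 cluster or its paralogs. miR-19b-3p had centred levels of -0.06, 1.27, -0.97 and -0.24. With the blank mean subtracted before quantile normalization, 2 of the 6 were again among the nearest 6 and all 6 among the nearest 20. The distance rests on 4 points, 1 array per group, and it is a description.

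Of 10 other miRNAs linked to restraint of the epithelial to mesenchymal transition, 9 were detected on both arrays of each comparison. At least 2-fold lower were 1 in villus minus crypt, 5 in day 1 minus crypt and 6 in day 5 minus crypt, beside 4.29%, 8.08% and 6.1% of all miRNAs, so that the villus count is near the share over all miRNAs. None was at least 2-fold higher, beside 4.79%, 6.77% and 5.5%. The 5 lower on day 1 were all of 1 family, the 5p arms of miR-30a to miR-30e, between -2.23 and -1.43. The 6 on day 5 were the same 5 and miR-203-3p, and the 1 in villus was miR-203-3p. The list had medians of -0.23, -1.43 and -1.25. miR-203-3p, an epidermal differentiation miRNA that represses Snai2, had -1.05, -0.74 and -1.42, lowest on day 5, where the miR-200 3p arms were lowest on day 1. miR-34a-5p, induced by p53, had -0.72, -0.72 and -0.37. miR-205-5p, which shares ZEB1 and ZEB2 as targets, was near the blank spots with heights of 14.8, 2.67, 12.2 and 6.02, and its differences lay between -0.06 and 0.08. Of 4 miRNAs linked to promotion of the transition, 2 were detected on both arrays of each of these pairs. miR-21a-5p had -0.87, -1.30 and -1.04, and miR-10b-5p 0.27, -1.03 and -0.52. miR-155-5p was detected on the villus array alone, at a height of 22.1, and miR-9-5p on none. On the Spike Control scale the median of the restraining miRNAs was 0.70 in villus minus crypt, -0.61 in day 1 minus crypt and -0.75 in day 5 minus crypt.

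Epithelial identity of the samples was checked with the same lists. All 6 probes of the intestinal epithelium list (the 5p and 3p arms of its 3 miRNAs) were detected on all 4 arrays, with summed heights of 52055, 13548, 10708 and 6313 on villus, crypt, day 1 and day 5. These sums are not scaled for the brightness of the arrays. In day 1 minus crypt and in day 5 minus crypt 5 of the 6 were at least 2-fold lower by normalized level. So were all 5 miR-200 3p arms, beside 8.08% and 6.1% of all miRNAs. The Spike Control scale gave the list smaller differences, with medians of -0.74 and -1.03. There the 6 probes ran from -1.54 to 0.40 on day 1 and from -1.33 to 0.19 on day 5, miR-194-2-3p being highest in both. Relative to all miRNAs those medians stood at -2.20 and -1.97. Of the enteroendocrine miRNAs, miR-375-3p had heights of 140, 62.1, 69 and 42.5, miR-7a-5p had 221, 102, 133 and 135, and miR-7b-5p had 23.5, 6.44, 6.45 and 6.18.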

How the data were processed

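Total RNA, labelled with Cy5 per the labels' protocols, was measured in 4 samples, 1 per group. The scanner tables deposited by the authors give, per the file headers, the spot median intensity at 635 nm on a linear scale, combined from 3 gains by straight-line fits. The deposited table of processed intensity values equalled those medians minus the trimmed blank mean, times 1 factor per array (largest residual 0.0535), with a median of 25.0 on each array. The labelling kit was of the miRCURY LNA Array line, per the labels, and no scanner or software name was found in labels or headers.

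Of 1900 miRNA probes, 3 with a failed quality mark were left out. Main values are normexp on the spot intensity (offset 50), log2 and quantile normalization over 1897 probes (limma 3.58.1, R 4.3.3). The column named as background was not subtracted in the main values, because its log2 correlation with its own spot was 0.931 to 0.963. Detection was the mean plus 2 SD of 896 blank spots, trimmed by 5% at each end. A call is a 2-fold difference, and percentages of calls are over miRNAs detected on both arrays. The processing was also run on simulated data built from the crypt array, with known folds in some probes and 1 brightness factor per array. The simulated arrays shared 1 blank level, unlike the real ones, so that run cannot decide between the scalings. Alternatives were other scalings, cyclic loess, the deposited values, other background steps and detection at 3 SD. Values without the day 5 array, against each single reference miRNA and as plain heights were added after seeing the data. Members, lists and rules were chosen with earlier results of these data known. Named were all members, the 6 miRNAs nearest in profile, and the first 3 detected miRNAs of each list, with others named for context after their values were seen.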

Additional observations from a re-analysis of the deposited data

How the results depend on the processing

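Each of 16 values (the median of all 9 members and the contrasts of loci, seed groups and arms, in 4 pairs of arrays) was recomputed under 9 alternatives, 144 in all, of which 124 had the sign of the reported value. By the spread among members, 90 stayed within it and 43 moved past it, while 11 turned in sign from a reported value larger than that spread or than 1. The median of all 9 members was 0.46 in villus minus crypt, -0.34 in day 1 minus crypt and -0.40 in day 5 minus crypt with scaling to the median. For the loci the contrast was -0.14 in villus minus crypt with scaling to the median and scaling to the 75th percentile. The arm contrast was 0.60 in villus minus crypt, -0.46 in day 1 minus crypt, -0.61 in day 5 minus crypt and -0.10 in day 5 minus day 1 with scaling to the median and scaling to the 75th percentile. The median of all 9 members was -0.16 in villus minus crypt, -0.86 in day 1 minus crypt and -0.63 in day 5 minus crypt with scaling to the 75th percentile. The median of all 9 members was -0.18 in villus minus crypt, -0.83 in day 1 minus crypt and -0.46 in day 5 minus crypt with scaling to the Spike Control spots. Loci differed by a contrast that was -0.12 in villus minus crypt and -0.19 in day 1 minus crypt with scaling to the Spike Control spots, scaling to the 3 epithelial miRNAs and the deposited values. The arm contrast was -0.40 in villus minus crypt, -1.09 in day 1 minus crypt and -0.39 in day 5 minus crypt with scaling to the Spike Control spots, scaling to the 3 epithelial miRNAs and the deposited values. The median of all 9 members was -0.38 in villus minus crypt, 0.40 in day 1 minus crypt and 0.59 in day 5 minus crypt with scaling to the 3 epithelial miRNAs. The median of all 9 members was -0.06 in villus minus crypt, -0.48 in day 1 minus crypt and -0.0049 in day 5 minus crypt with the background column subtracted. Between loci the contrast was -0.60 in villus minus crypt and -0.10 in day 5 minus crypt with the background column subtracted. The contrast of the seed groups was -1.60 in villus minus crypt, -0.57 in day 1 minus crypt, -1.32 in day 5 minus crypt and -0.40 in day 5 minus day 1 with the background column subtracted. The arm contrast was -2.14 in villus minus crypt and -2.05 in day 5 minus crypt with the background column subtracted. The locus contrast was -0.09 in villus minus crypt and -0.20 in day 1 minus crypt with cyclic loess. The arm contrast was -2.03 in day 1 minus crypt with cyclic loess. The arm contrast was -0.23 in villus minus crypt, -0.75 in day 1 minus crypt and -0.55 in day 5 minus crypt with the blank mean subtracted before quantile normalization. For these changes the cause was not tested. Detection at 3 SD could not move any of the 16 values, because all 9 members were also detected on all 4 arrays at 3 SD. Its 16 outcomes were thus fixed in advance, and they are counted in the 144, the 124 and the 90. The scalings to Spike Controls or to the epithelial miR-192-5p, miR-194-5p and miR-215-5p, and the deposited values, differ by 1 factor per array, so their contrasts within the family are the same measurement. The same holds between scaling to the median and scaling to the 75th percentile. No paired analysis was possible because each group has 1 array, and for the same reason no replicate could be left out. The 5p arms, near the blank spots, are limited by signal over background, and the spread between animals or cultures is unknown here.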

Other observations

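The 5p arm of miR-429, for which the arrays hold a probe outside the 9 members, was below the mean of the blank spots on all 4 arrays, at -2.84 in villus, -0.523 in crypt, -2.39 in day 1 and -1.09 in day 5 material. It was therefore not detected where its 3p partner stood between 362 and 1203 above the blank spots.

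The column named as background in the scanner tables was as bright as the spot for several members. It was 113% of the spot for miR-200b-3p on the villus array, 95% for miR-200a-3p on the crypt array and 22.3% for miR-141-3p on the crypt array. With it subtracted, the villus minus crypt difference was 1.40 for miR-200a-3p and -4.88 for miR-200b-3p; without the subtraction these were -1.57 and -1.25.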
